A study of Arabidopsis thaliana with 9 samples.

Results

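The WRKY genes encode plant transcription factors, and 41 of the 32833 genes in the count table were followed here. They were taken by locus identifier from a given list of WRKY loci, and all 41 were in the table. A further 31 annotated WRKY loci in the table were used only for comparison. RNA was sequenced from Arabidopsis thaliana seedlings of 3 genotypes with 3 libraries each, sampled 7 days after germination and 14 h after lights on. Plants grew in soil at 22 °C in long days of 16 h light and 8 h darkness. The line 35S:CO expresses CONSTANS (CO), the transcription factor that couples long days to flowering, from a viral promoter active in most tissues. The line SUC2:CO expresses an HA-tagged CO from the promoter of the companion-cell sucrose transporter gene SUC2 in the co-10 mutant background. Col-0, the wild-type accession, was the control for both, and the labels name no other background for 35S:CO. In SUC2:CO the transgene and the background cannot be told apart, and the labels do not say how many insertion events either line stands for.

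WRKY proteins share a DNA-binding domain named for its conserved amino acids, and most bind the W-box, a short element in the promoters of many defence genes and of WRKY genes themselves. They are grouped by the number of WRKY domains and the form of the zinc finger into group I, subgroups IIa to IIe of group II, and group III. In leaves they are best known for immunity, responses to salicylic acid and jasmonate, and senescence, and a few act in development, such as TTG2 in leaf hairs.

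The promoters of 3 members are shown because they carry the motifs that bear on the family's own regulation and on CO. A promoter here is the 250 bases before the gene's start in the RefSeq annotation of the TAIR10.1 assembly, printed 5′ to 3′ on the gene's strand. WRKY45 (chr3:327413-327662, minus strand) and WRKY11 (chr4:15291935-15292184, minus strand) were the members that changed and held a W-box, given in capitals. WRKY54 (chr2:17002529-17002778, minus strand), shown after its values were seen, was the member with a CO-responsive element, given in capitals.
WRKY45: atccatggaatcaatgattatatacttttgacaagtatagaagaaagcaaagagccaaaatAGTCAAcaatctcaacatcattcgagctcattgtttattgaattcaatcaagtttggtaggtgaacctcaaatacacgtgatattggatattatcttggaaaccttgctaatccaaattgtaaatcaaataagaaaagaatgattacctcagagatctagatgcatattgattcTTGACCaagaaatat
WRKY11: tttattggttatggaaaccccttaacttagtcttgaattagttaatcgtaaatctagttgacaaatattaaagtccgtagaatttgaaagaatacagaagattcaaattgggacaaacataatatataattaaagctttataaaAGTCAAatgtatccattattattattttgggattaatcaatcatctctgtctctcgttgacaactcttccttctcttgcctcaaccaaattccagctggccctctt
WRKY54: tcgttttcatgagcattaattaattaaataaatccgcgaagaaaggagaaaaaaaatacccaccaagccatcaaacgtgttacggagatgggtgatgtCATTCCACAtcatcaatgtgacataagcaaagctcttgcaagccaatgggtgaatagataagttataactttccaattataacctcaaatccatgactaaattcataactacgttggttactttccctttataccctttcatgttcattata

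The W-box was searched as TTGACC or TTGACT on both strands, so AGTCAA in the sequences above is a W-box read on the other strand. It occurred in 16 of the 41 member promoters, a share of 39.0% with a 95% exact binomial interval of 24.2% to 55.5%, against 28.4% of all 27443 promoters. WRKY45 had W-boxes 189 and 15 bases before its start and WRKY11 had one 106 bases before its start. The CO-responsive element was searched on both strands as TGTG and ATG with 2 or 3 bases between them and was found in 1 member promoter, that of WRKY54, 152 bases before the start. That is 2.44% of members, with an interval of 0.0617% to 12.9%, against 7.04% of all promoters. The G-box CACGTG was present in 5 members (12.2%, against 6.49% of all promoters). The evening element AAAATATCT, bound by clock proteins, was present in 1 member (2.44%, against 2.36%). No searched motif is contained in another. The plot of motif positions shows W-boxes in 2 of the 15 members that changed in some comparison, in 10 of the 20 tested members that changed in none, and in 4 of the 6 members that were not tested.

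**Figure D1:**
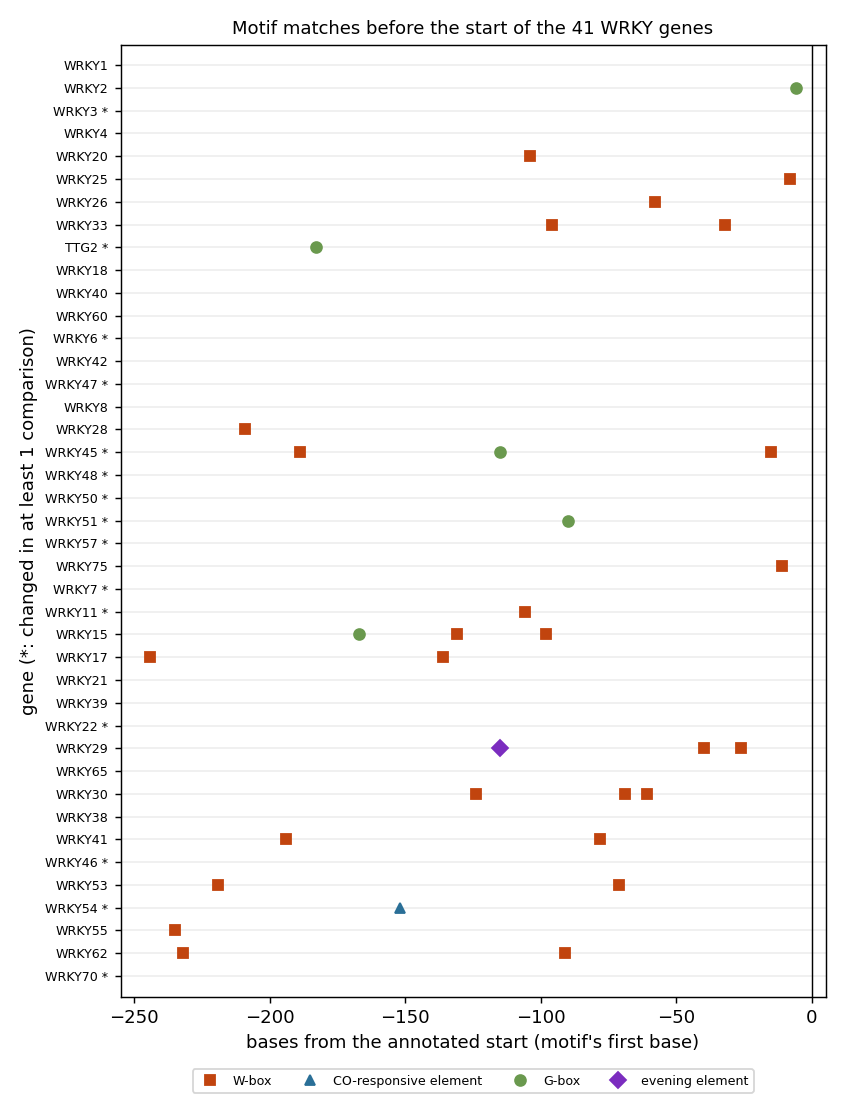
Position of each motif match in the 250 bases before the start of the 41 WRKY genes. The horizontal axis gives the distance from the annotated start in bases, each row is a gene, and an asterisk marks genes that changed in at least 1 comparison. Among the genes with an asterisk, W-boxes lie in WRKY45 and WRKY11 alone.

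CO itself was measured first, since it checks the labels. Its level was 576, 658 and 676 CPM (the count relative to the library total, adjusted for library composition) in the 3 35S:CO libraries, 48.6, 50.9 and 60.3 CPM in the SUC2:CO libraries and 9.54, 10.1 and 7.97 CPM in the Col-0 libraries. No libraries of different genotypes overlapped. The log2 fold change against Col-0 was 6.11 ± 0.15 (SE) in 35S:CO and 2.53 ± 0.13 in SUC2:CO (adjusted p = 2.1e-08 and 5.2e-06, edgeR's quasi-likelihood test). Endogenous and transgenic CO transcripts cannot be told apart in these counts. Libraries held 25563118 to 26636174 counts, and 3 counts, the smallest level read as detected, equal 0.113 to 0.117 CPM. Intervals and this floor cover counting error only. The 4 green-shoot marker genes summed to 52180 to 72890 CPM over the 9 libraries, while 10 root marker genes summed to 0.117 to 0.292 CPM in 35S:CO, 0.189 to 0.383 CPM in SUC2:CO and 0.0415 to 0.765 CPM in Col-0, with at most 8 counts of any one in a library. RNA of these defining root genes was thus near 0 in material labelled as seedlings. The labels do not say that replicates came from separate plantings, so p-values measure only the spread between these libraries.

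Of the 41 members, 35 had enough counts to be tested, and 15 changed in at least 1 comparison while 20 of those tested changed in none. Against Col-0, 8 members were higher and 0 lower in 35S:CO, namely WRKY45, WRKY50, WRKY51, WRKY57, WRKY7, WRKY46, WRKY54 and WRKY70. No member was lower at an adjusted p under 0.05 with DESeq2 or limma-voom either, and at an unadjusted p under 0.05 edgeR gave 11 higher and 1 lower. The 8 are 22.9% of the tested members, against 11.8% of all 19149 genes tested, of which 6.32% were higher and 5.48% lower. WRKY50 and WRKY51 passed the filter on low counts only through their 35S:CO libraries, and so could only be tested because they were high there. Without them the share was 18.2%, or 6 of 33. The median log2 fold change of the tested members was 0.25, beside −0.04 over all tested genes. With the replicate number as a block, which in this comparison pairs the libraries, 10 members were higher. The block also raised the calls over all tested genes, to 15.8% from 11.8%. The 2 added members were WRKY6 (log2 fold change 0.51, adjusted p = 0.038, against 0.50 and 0.052 without the block) and WRKY17 (0.56 and 0.046, against 0.57 and 0.064 without the block, edgeR's quasi-likelihood test). In bulk seedlings, fewer cells of a type and less RNA per cell cannot be told apart, here and in every result that follows.

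In SUC2:CO against Col-0, 8 members were higher and 2 lower. WRKY6, WRKY47, WRKY48, WRKY57, WRKY7, WRKY11, WRKY54 and WRKY70 rose, and TTG2 and WRKY22 fell. The share of 28.6% lies close to the 32.3% of all tested genes that changed, of which 15.5% were higher and 16.8% lower. The median member log2 fold change was 0.19, beside −0.02 over all tested genes. Both comparisons use the same Col-0 libraries.

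Directly between the lines, 8 members differed. TTG2, WRKY46, WRKY50, WRKY51 and WRKY57 had more RNA in 35S:CO, and WRKY3, WRKY47 and WRKY54 were lower in 35S:CO. These are 22.9% of tested members, against 18.8% of all tested genes, of which 9.27% were higher and 9.5% lower. Without WRKY50 and WRKY51, tested only because their 35S:CO libraries were high, it was 6 of 33, or 18.2%. The median member log2 fold change was 0.09, beside 0.01 over all tested genes. With the 41 members summed, the level was 418, 446 and 440.2 CPM in 35S:CO, 416, 419 and 437 CPM in SUC2:CO and 307, 328 and 357 CPM in Col-0. Every transgenic library exceeded every Col-0 library in this sum. Abundant genes weigh most in it, and 20 tested members changed in no comparison. WRKY70 alone had a mean of 47.7 CPM in 35S:CO, 35.3 in SUC2:CO and 12.4 in Col-0.

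**Figure D2:**
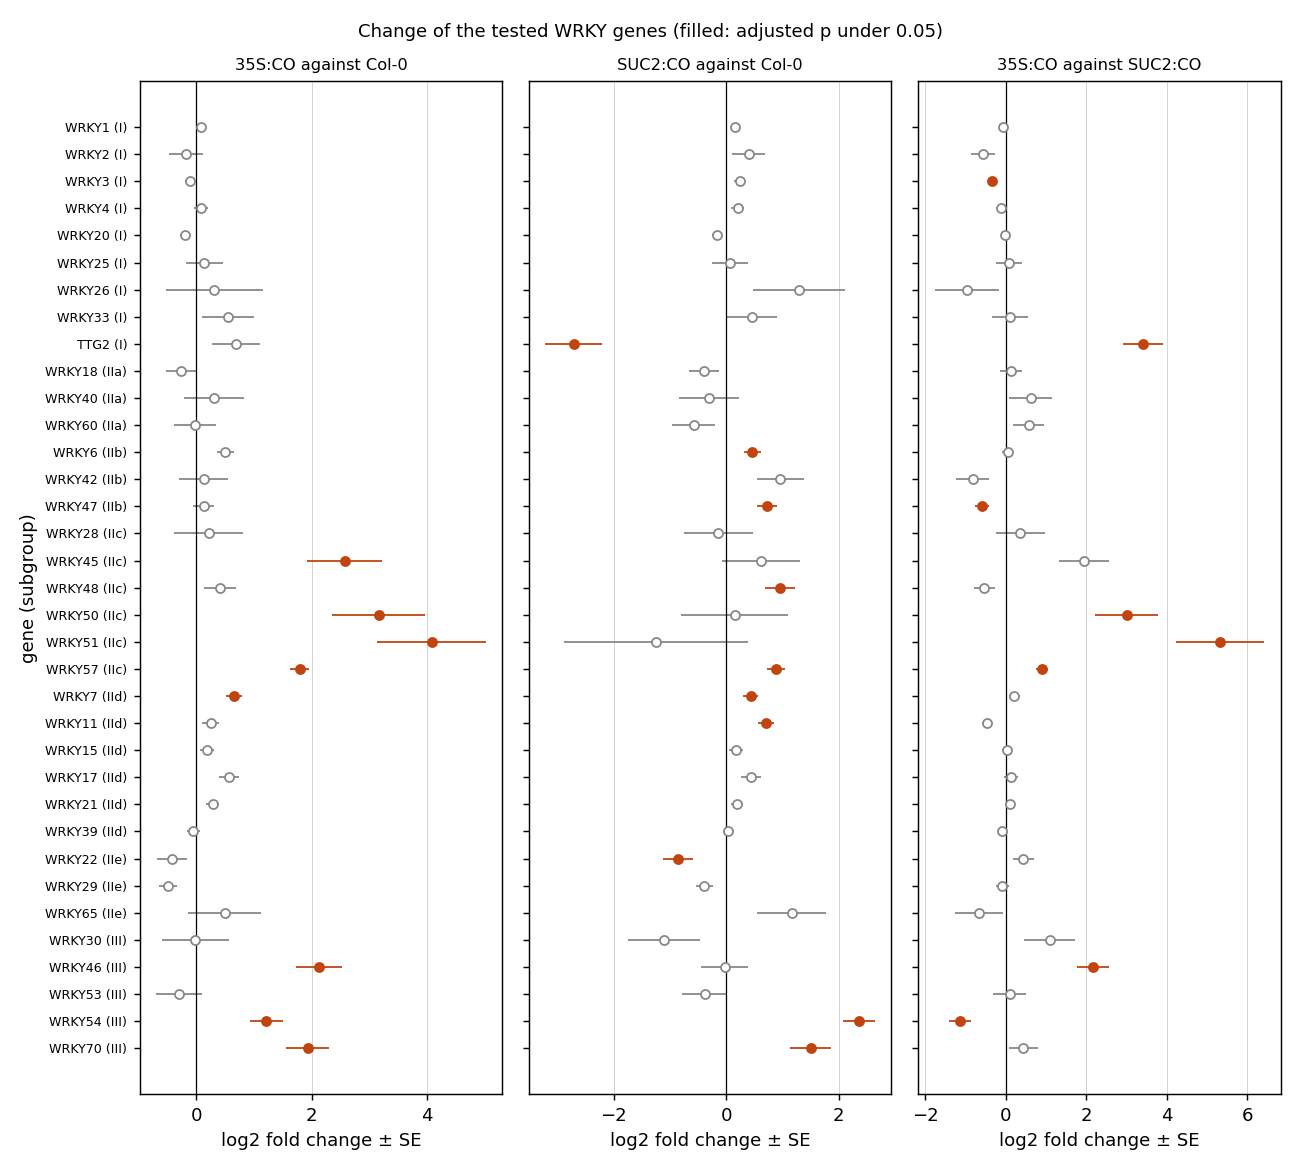
Log2 fold change ± SE of the 35 tested WRKY genes in 35S:CO against Col-0, SUC2:CO against Col-0 and 35S:CO against SUC2:CO. Filled points passed an adjusted p of 0.05, and each panel has its own horizontal scale. The filled points of the left panel all lie above 0, and TTG2 at −2.71 is the lowest of the middle panel.

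Group III holds regulators of salicylic acid signalling. WRKY70 (AT3G56400, chromosome 3, 20908711 to 20910623), which promotes salicylic acid responses and restrains jasmonate responses and leaf senescence, was measured at 32.1, 49.0 and 62.1 CPM in 35S:CO, 39.1, 30.5 and 36.2 CPM in SUC2:CO and 5.94, 11.1 and 20.3 CPM in Col-0. All 6 transgenic libraries stood above all Col-0 libraries. It rose by a log2 fold change of 1.94 ± 0.37 in 35S:CO and 1.50 ± 0.37 in SUC2:CO (SE, adjusted p = 0.0081 and 0.012, edgeR's quasi-likelihood test). The lines overlapped, and the difference of 0.44 ± 0.35 between them missed the threshold (adjusted p = 0.43). Per kilobase of transcript, WRKY70 was the most abundant member in 35S:CO, at 32.5 ± 10.2 CPM per kb, ahead of WRKY17 at 21.4 ± 5.42 and WRKY11 at 20.9 ± 5.06 (SD, n = 3). Those 3 overlapped in range in 35S:CO. In SUC2:CO the order began with WRKY11 at 28.7 ± 1.78, then WRKY70 at 24.0 ± 2.98 and WRKY17 at 19.5 ± 1.00 CPM per kb. In Col-0, WRKY11 had 17.6 ± 0.427, WRKY20 17.3 ± 0.368 and WRKY17 14.4 ± 2.28 CPM per kb, and WRKY70 had 8.47 ± 4.94.

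WRKY54 (AT2G40750, chromosome 2, 17000419 to 17002528) is a close relative of WRKY70 and acts with it in senescence and salicylic acid feedback. It had 4.81, 7.66 and 7.33 CPM in 35S:CO, 14.1, 14.7 and 15.0 CPM in SUC2:CO and 1.70, 4.28 and 2.61 CPM in Col-0, so that the genotypes formed 3 separate ranges with SUC2:CO on top. The log2 fold change against Col-0 was 1.21 ± 0.29 in 35S:CO and 2.36 ± 0.29 in SUC2:CO (SE, adjusted p = 0.022 and 0.00051). Between the lines WRKY54 was lower in 35S:CO, with a log2 fold change of −1.15 ± 0.27 (adjusted p = 0.015), the reverse of the order of CO levels in these lines. The 35S:CO call did not pass without 35S:CO replicate 2 or 3 or Col-0 replicate 1 or 3, where the adjusted p was 0.05 to 0.074, nor in a fit of only 35S:CO and Col-0 (0.078). The call between lines did not pass without 35S:CO replicate 1 or SUC2:CO replicate 2 or 3 (0.058 to 0.068).

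WRKY46 (AT2G46400, chromosome 2, 19043411 to 19044955), which works with WRKY54 and WRKY70 in salicylic acid and brassinosteroid responses, showed another pattern. It had 4.81, 6.29 and 6.02 CPM in 35S:CO, against 0.907, 1.74 and 1.19 CPM in SUC2:CO and 0.681, 0.914 and 2.26 CPM in Col-0. The 35S:CO libraries stood apart, and the SUC2:CO and Col-0 libraries overlapped. It differed by a log2 fold change of 2.13 ± 0.40 in 35S:CO against Col-0 and by 2.16 ± 0.40 in 35S:CO against SUC2:CO (SE, adjusted p = 0.0071 and 0.0055). In SUC2:CO against Col-0 it was −0.03 (adjusted p = 0.97). WRKY53 (AT4G23810), a promoter of leaf senescence, had 1.66, 2.27 and 2.19 CPM in 35S:CO, 1.63, 2.62 and 1.49 CPM in SUC2:CO and 1.36, 1.91 and 4.17 CPM in Col-0. Its genotypes overlapped and no comparison passed. WRKY30 stayed at or below 0.781 CPM in every library and did not pass either.

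**Figure D3:**
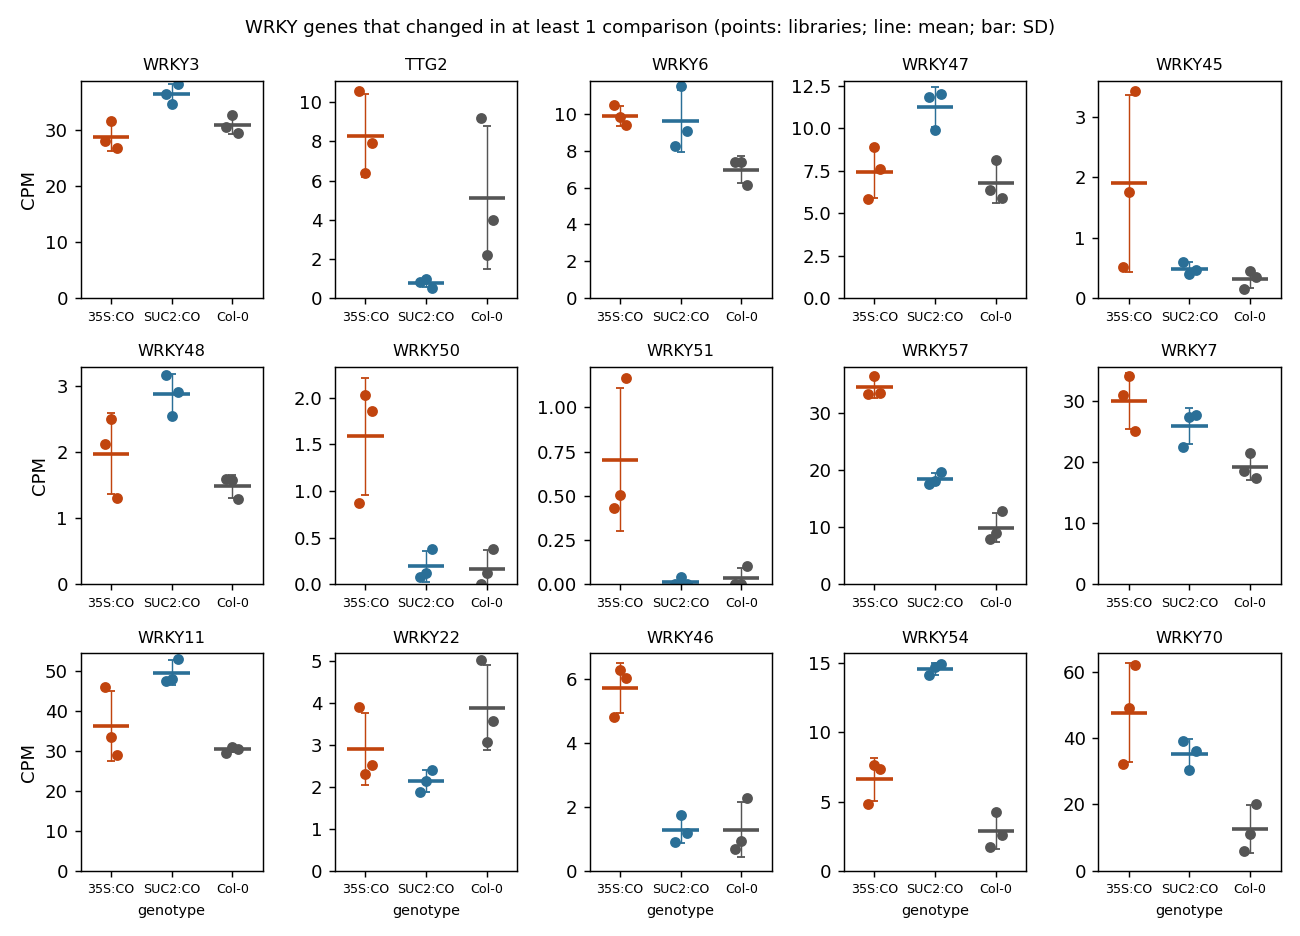
Level in CPM of the 15 WRKY genes that changed in at least 1 comparison. Points are libraries, horizontal lines are means and bars are SDs, with 3 libraries of each genotype. TTG2 is lowest and WRKY54 highest in the SUC2:CO libraries, while WRKY46, WRKY50 and WRKY51 are highest in the 35S:CO libraries.

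Subgroup IIc, with 6 of its 8 members tested, held 4 of the 8 members higher in 35S:CO against Col-0. They were 66.7% of its tested members, beside 6.32% of all tested genes that were higher. Of these 4 members, WRKY50 and WRKY51 could only be tested because their 35S:CO libraries were high. WRKY57 (AT1G69310, chromosome 1, 26054275 to 26058383), known for drought tolerance and for restraining jasmonate-induced senescence, had 33.3, 36.5 and 33.5 CPM in 35S:CO, 17.6, 18.1 and 19.7 CPM in SUC2:CO and 7.99, 8.97 and 12.9 CPM in Col-0. Its 3 genotypes did not overlap and stood in the order of their CO levels. WRKY57 changed on the log2 scale by 1.79 ± 0.16 in 35S:CO and 0.89 ± 0.16 in SUC2:CO against Col-0, and the lines differed by 0.90 ± 0.15 (SE, adjusted p = 5.5e-05, 0.0025 and 0.0035, edgeR's quasi-likelihood test). WRKY57 passed under all 18 alternative settings in each of the 3 comparisons.

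WRKY50 (AT5G26170, chromosome 5, 9146879 to 9148391) and WRKY51 (AT5G64810, chromosome 5, 25908247 to 25909881) are a related pair that mediates repression of jasmonate responses by salicylic acid. WRKY50 had 0.868, 2.03 and 1.86 CPM in 35S:CO, 0.0756, 0.121 and 0.383 CPM in SUC2:CO and 0, 0.125 and 0.383 CPM in Col-0. Its 35S:CO libraries lay above the rest, none of which exceeded 0.383 CPM. Its log2 fold change was 3.16 ± 0.80 in 35S:CO against Col-0 and 3.00 ± 0.79 in 35S:CO against SUC2:CO (SE, adjusted p = 0.029 and 0.025). WRKY51 had 11, 13 and 32 counts in 35S:CO, 0, 1 and 0 counts in SUC2:CO and 0, 0 and 3 counts in Col-0. The ratio of summed counts per total was 18.9 in 35S:CO over Col-0 (95% counting interval 6.14 to 94.3) and 55.3 in 35S:CO over SUC2:CO (9.52 to 2220). Both differences passed (adjusted p = 0.02 and 0.0088). Against Col-0, the WRKY50 call did not pass without 35S:CO replicate 2 or 3, Col-0 replicate 1 or 2 or SUC2:CO replicate 2 (0.053 to 0.1), nor when SUC2:CO was left out of the fit (0.061). The WRKY51 call against Col-0 did not pass without 35S:CO replicate 3 or Col-0 replicate 1 or 2 (0.051 to 0.068). Between the lines, the WRKY50 call did not pass without 35S:CO replicate 2 or 3 or SUC2:CO replicate 1 or 2 (0.06 to 0.099).

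WRKY45 (AT3G01970), which activates phosphate uptake and age-triggered senescence, was variable in 35S:CO. It had 0.513, 1.76 and 3.43 CPM in 35S:CO, 0.605, 0.404 and 0.459 CPM in SUC2:CO and 0.151, 0.457 and 0.348 CPM in Col-0, so that the lowest 35S:CO library was just above Col-0 and within the SUC2:CO range. The log2 fold change in 35S:CO against Col-0 was 2.57 ± 0.65 (SE, adjusted p = 0.029), and without 35S:CO replicate 3 it was 1.83 (adjusted p = 0.094). The call also did not pass without 35S:CO replicate 2, Col-0 replicate 1 or 3 or SUC2:CO replicate 2 or 3 (0.05 to 0.1), nor with limma-voom (0.11) or in a fit of only 35S:CO and Col-0 (0.081). Between the lines the difference passed under some settings, among them DESeq2 (log2 fold change 1.97, adjusted p = 0.017) and without 35S:CO replicate 1 (2.44 and 0.013). WRKY48 (AT5G49520), a negative regulator of basal resistance to bacteria, had 2.13, 2.50 and 1.31 CPM in 35S:CO, 3.18, 2.54 and 2.91 CPM in SUC2:CO and 1.59, 1.58 and 1.29 CPM in Col-0. Only its SUC2:CO libraries lay wholly above Col-0, with a log2 fold change of 0.95 ± 0.27 (adjusted p = 0.021). That call did not pass without SUC2:CO replicate 1 or 3 or Col-0 replicate 3 (0.062 to 0.064). WRKY28, an activator of the salicylic acid synthesis gene ICS1, stayed between 0.115 and 0.623 CPM in all libraries and did not pass.

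Subgroup IId members bind calmodulin, and WRKY7, WRKY11 and WRKY17 are known as negative regulators of resistance to bacteria. WRKY7 (AT4G24240) had 30.9, 34.1 and 25.0 CPM in 35S:CO, 22.5, 27.4 and 27.7 CPM in SUC2:CO and 18.5, 21.4 and 17.4 CPM in Col-0, with no overlap of either line with Col-0. It rose by a log2 fold change of 0.65 ± 0.14 in 35S:CO and 0.44 ± 0.14 in SUC2:CO (SE, adjusted p = 0.014 and 0.035). The SUC2:CO call did not pass without Col-0 replicate 1 or 3 or SUC2:CO replicate 2 or 3 (0.098 to 0.11). WRKY11 (AT4G31550) had 46.0, 33.6 and 29.1 CPM in 35S:CO, 47.6, 48.2 and 53.2 CPM in SUC2:CO and 29.6, 31.1 and 30.5 CPM in Col-0. SUC2:CO was above both other genotypes, and the first 35S:CO library came near it. The log2 fold change was 0.71 ± 0.15 in SUC2:CO against Col-0 (adjusted p = 0.0054), and −0.46 ± 0.15 in 35S:CO against SUC2:CO (adjusted p = 0.053). The difference passed with DESeq2 (−0.44 and 0.035), with limma-voom (−0.48 and 0.043) and without 35S:CO replicate 1 (−0.63 and 0.0052). WRKY17 (AT2G24570) had 40.3, 34.6 and 23.9 CPM in 35S:CO, 29.8, 28.5 and 31.5 CPM in SUC2:CO and 21.5, 26.0 and 19.1 CPM in Col-0. Its 35S:CO libraries overlapped Col-0, and it passed in 35S:CO without 35S:CO replicate 3 or Col-0 replicate 2 (0.0082 and 0.038) and in SUC2:CO without 35S:CO replicate 3 or Col-0 replicate 2 (0.027 and 0.045). It also passed in 35S:CO with no filter on low counts, library totals or DESeq2 (0.02 to 0.04), and in SUC2:CO in a fit of only that line and Col-0 (0.03). WRKY15, WRKY21 and WRKY39 did not pass in any comparison.

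The first 35S:CO library also stood out in genes of the rapid response to touch and wounding. The 13 listed genes of that response summed to 130.1 to 218 CPM in 35S:CO, 95.5 to 110.5 CPM in SUC2:CO and 103 to 129.5 CPM in Col-0, with the 218 CPM in replicate 1 of 35S:CO. CAF1a, a deadenylase gene induced within minutes of wounding, had 32.1, 5.27 and 6.02 CPM in 35S:CO, 5.33, 6.02 and 5.89 CPM in SUC2:CO and 9.16, 5.65 and 8.14 CPM in Col-0. Of these 13 genes, 2 were higher and 1 lower in 35S:CO against Col-0, 1 was higher and 2 lower in SUC2:CO against Col-0, and 2 were higher and 0 lower in 35S:CO against SUC2:CO. Those higher were TCH3 in all 3 comparisons and the zinc finger gene SZF2 in both comparisons of 35S:CO. The called genes were 23.1%, 23.1% and 15.4% of the 13, beside 11.8%, 32.3% and 18.8% of all tested genes. The cell-wall enzyme gene TCH4 fell in SUC2:CO by 1.56 on the log2 scale (adjusted p = 0.038). The calmodulin-like gene TCH3 rose in 35S:CO by a log2 fold change of 1.17 (adjusted p = 0.00086), while the jasmonate repressor JAZ1 fell by 1.00 in 35S:CO and by 1.07 in SUC2:CO against Col-0 (adjusted p = 0.038 and 0.014). With the replicate block the transcription factor gene ERF1A was also lower in 35S:CO against Col-0 (−0.81 on the log2 scale, adjusted p = 0.047, against −0.82 and 0.18 without it). The median log2 fold change of the 13 genes was 0.38 in 35S:CO and −0.41 in SUC2:CO against Col-0. The part of touch or wounding in the WRKY values was not tested.

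Group I held the largest fall among the members. TTG2 (AT2G37260, chromosome 2, 15644811 to 15647076), which acts in leaf-hair outgrowth and in seed-coat pigment and mucilage, had 10.6, 6.37 and 7.91 CPM in 35S:CO, 0.832, 0.969 and 0.536 CPM in SUC2:CO and 9.20, 2.20 and 3.97 CPM in Col-0. The SUC2:CO libraries lay below all others, while the 35S:CO and Col-0 ranges overlapped. TTG2 fell in SUC2:CO against Col-0 by 2.71 ± 0.50 on the log2 scale, and the difference in 35S:CO against SUC2:CO was 3.41 ± 0.50 (SE, adjusted p = 0.0031 and 0.0015, edgeR's quasi-likelihood test). Without 1 library at a time the fall in SUC2:CO stayed between −3.08 and −1.99. In 35S:CO against Col-0 the log2 fold change was 0.69 (adjusted p = 0.34), or 1.42 without Col-0 replicate 1 (adjusted p = 0.028).

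Of 8 other leaf-hair regulators, chosen after the values of TTG2 were seen and so given without a test, 7 had their lowest mean CPM in SUC2:CO and TTG1 had its highest there. The bHLH gene GL3 had 2.29, 1.64 and 0.766 CPM in 35S:CO, 0.0756, 0.202 and 0.383 CPM in SUC2:CO and 2.80, 1.04 and 0.696 CPM in Col-0. Its relative EGL3 had 4.93, 3.24 and 3.35 CPM in 35S:CO, 0.681, 0.929 and 0.957 CPM in SUC2:CO and 6.02, 0.997 and 4.42 CPM in Col-0. The MYB gene GL1 had 21, 9 and 27 counts in 35S:CO, 0 counts in each SUC2:CO library and 40, 0 and 13 counts in Col-0. For GL3, EGL3 and GL1, as for TTG2, the first Col-0 library was the highest. The lowest was the second for EGL3, GL1 and TTG2, and the third for GL3. TTG1, a WD40 partner of GL3, had 27.6, 38.6 and 28.9 CPM in 35S:CO, 33.9, 33.0 and 41.3 CPM in SUC2:CO and 26.8, 28.0 and 26.1 CPM in Col-0, so that all SUC2:CO libraries were above Col-0. The small repressor TRY had 4.89, 5.90 and 5.21 CPM in 35S:CO, 1.21, 1.21 and 0.727 CPM in SUC2:CO and 1.67, 1.66 and 1.67 CPM in Col-0, with the 35S:CO libraries on top and SUC2:CO lowest. For the MYB gene MYB23, the homeobox gene GL2 and the repressor CPC, the SUC2:CO and Col-0 libraries overlapped. GL1 did not separate them fully either, since the second Col-0 library also had 0 counts. The share of young leaf epidermis in these samples was not tested.

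Of the remaining group I genes, WRKY3 alone passed a test. WRKY3 (AT2G03340), which with WRKY4 contributes to resistance against necrotrophic fungi, had 28.0, 31.5 and 26.8 CPM in 35S:CO, 36.3, 34.6 and 38.1 CPM in SUC2:CO and 30.5, 32.6 and 29.5 CPM in Col-0. Between the lines it was lower in 35S:CO, with no overlap and a log2 fold change of −0.34 ± 0.09 (SE, adjusted p = 0.029). The WRKY3 call did not pass without any one of 35S:CO replicates 1 and 3 or of the 3 SUC2:CO replicates (0.065 to 0.14), nor with no filter on low counts (0.059) or library totals (0.05). WRKY33 (AT2G38470), a central activator of camalexin synthesis and resistance to Botrytis, had 6.82, 8.17 and 11.0 CPM in 35S:CO, 7.56, 10.1 and 6.66 CPM in SUC2:CO and 2.95, 3.16 and 11.5 CPM in Col-0. The third Col-0 library exceeded every other library. Its log2 fold change of 0.55 in 35S:CO and 0.45 in SUC2:CO did not pass against Col-0 (adjusted p = 0.49 and 0.47). Without Col-0 replicate 3 the same values were 1.50 and 1.41 (adjusted p = 0.006 and 0.0044). WRKY1, WRKY2, WRKY4, WRKY20, WRKY25 and WRKY26 did not pass in any comparison.

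Libraries of 35S:CO and Col-0 with the same replicate number deviated together. Over all tested genes, deviations from the genotype mean correlated between 35S:CO and Col-0 libraries of the same number, at 0.435, 0.302 and 0.248. Other pairs averaged −0.165, a value largely fixed by the same-number ones, since deviations from a mean cancel within a genotype. In WRKY2 (AT5G56270), known from pollen and embryo development, the levels were 8.60, 10.3 and 16.2 CPM in 35S:CO, 16.3, 17.1 and 18.6 CPM in SUC2:CO and 8.63, 11.3 and 19.5 CPM in Col-0. The third library was the highest in each genotype for WRKY2, and in 35S:CO and Col-0 for WRKY33 and WRKY70. Without Col-0 replicate 3, WRKY2 was higher in SUC2:CO than in Col-0 by a log2 fold change of 0.80 (adjusted p = 0.036), against 0.40 and 0.32 with it. WRKY2, WRKY33 and WRKY53, like WRKY1, WRKY4, WRKY29, WRKY40 and WRKY41, overlap an annotated locus on the opposite strand, so their counts are uncertain where strand was not used in counting. What the replicate number stands for is not given in the sources used here.

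**Figure D4:**
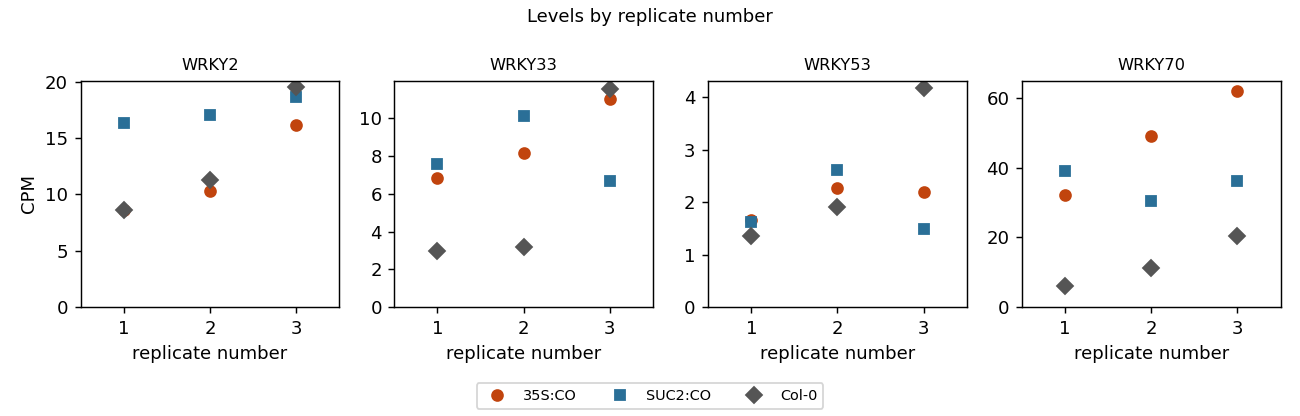
Level in CPM of WRKY2, WRKY33, WRKY53 and WRKY70 against replicate number, with 1 point for each library of 35S:CO, SUC2:CO and Col-0. The third Col-0 library is the highest Col-0 library for all 4 genes, and WRKY70 separates both lines from Col-0 at every number.

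Subgroup IIa contains WRKY18, WRKY40 and WRKY60, which form complexes with each other and act in abscisic acid responses and defence. With edgeR's quasi-likelihood test 0 of the 3 passed in any comparison, also at an unadjusted p under 0.05. WRKY18 (AT4G31800) had 4.54, 6.06 and 10.5 CPM in 35S:CO, 5.94, 6.54 and 6.85 CPM in SUC2:CO and 8.74, 7.14 and 9.50 CPM in Col-0, with overlapping 35S:CO and Col-0 ranges. Its log2 fold change in 35S:CO against Col-0 was −0.27 (adjusted p = 0.57), or −0.68 without 35S:CO replicate 3 (adjusted p = 0.05, just past the threshold).

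In subgroup IIb, WRKY6 and WRKY47 changed and WRKY42, which also regulates PHO1, did not pass. WRKY6 (AT1G62300), which acts in senescence and represses the phosphate exporter gene PHO1, had 10.5, 9.81 and 9.41 CPM in 35S:CO, 8.24, 11.5 and 9.07 CPM in SUC2:CO and 7.38, 7.39 and 6.16 CPM in Col-0. All transgenic libraries were above all Col-0 libraries, and the rise in SUC2:CO was 0.46 ± 0.15 on the log2 scale (SE, adjusted p = 0.036). It did not pass without Col-0 replicate 1 or 3 or SUC2:CO replicate 2 or 3 (0.063 to 0.14), nor in a fit of only SUC2:CO and Col-0 (0.061). In 35S:CO, where it missed the threshold, WRKY6 passed with no filter on low counts, RLE scaling, library totals, DESeq2 or without SUC2:CO replicate 2 (0.024 to 0.048). WRKY47 (AT4G01720) had 5.84, 8.91 and 7.62 CPM in 35S:CO, 11.9, 9.89 and 12.0 CPM in SUC2:CO and 6.36, 8.14 and 5.91 CPM in Col-0. SUC2:CO was above both other genotypes, by 0.73 ± 0.18 over Col-0 (adjusted p = 0.013), and the log2 fold change of 35S:CO against SUC2:CO was −0.59 ± 0.18 (adjusted p = 0.044). The call against Col-0 did not pass without SUC2:CO replicate 3 (0.051), nor the call between the lines without 35S:CO replicate 1 or 3 or any one SUC2:CO replicate (0.069 to 0.17). The WRKY47 call between the lines was also lost with no filter on low counts (0.051) and with library totals (0.061).

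In subgroup IIe, WRKY22 (AT4G01250), which acts below a MAP kinase cascade in the response to bacterial flagellin, had 3.91, 2.30 and 2.52 CPM in 35S:CO, 1.89, 2.14 and 2.41 CPM in SUC2:CO and 5.03, 3.07 and 3.58 CPM in Col-0. The SUC2:CO libraries lay below Col-0 by 0.86 ± 0.27 on the log2 scale (SE, adjusted p = 0.032), while 35S:CO overlapped both. The call did not pass without Col-0 replicate 1 or any one SUC2:CO replicate (0.065 to 0.13). WRKY29, its partner in that pathway, and WRKY65 did not pass, although WRKY29 was lower in SUC2:CO without 35S:CO replicate 1 (−0.40 on the log2 scale, adjusted p = 0.033) and in a fit of only SUC2:CO and Col-0 (−0.39 and 0.044).

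**Figure D5:**
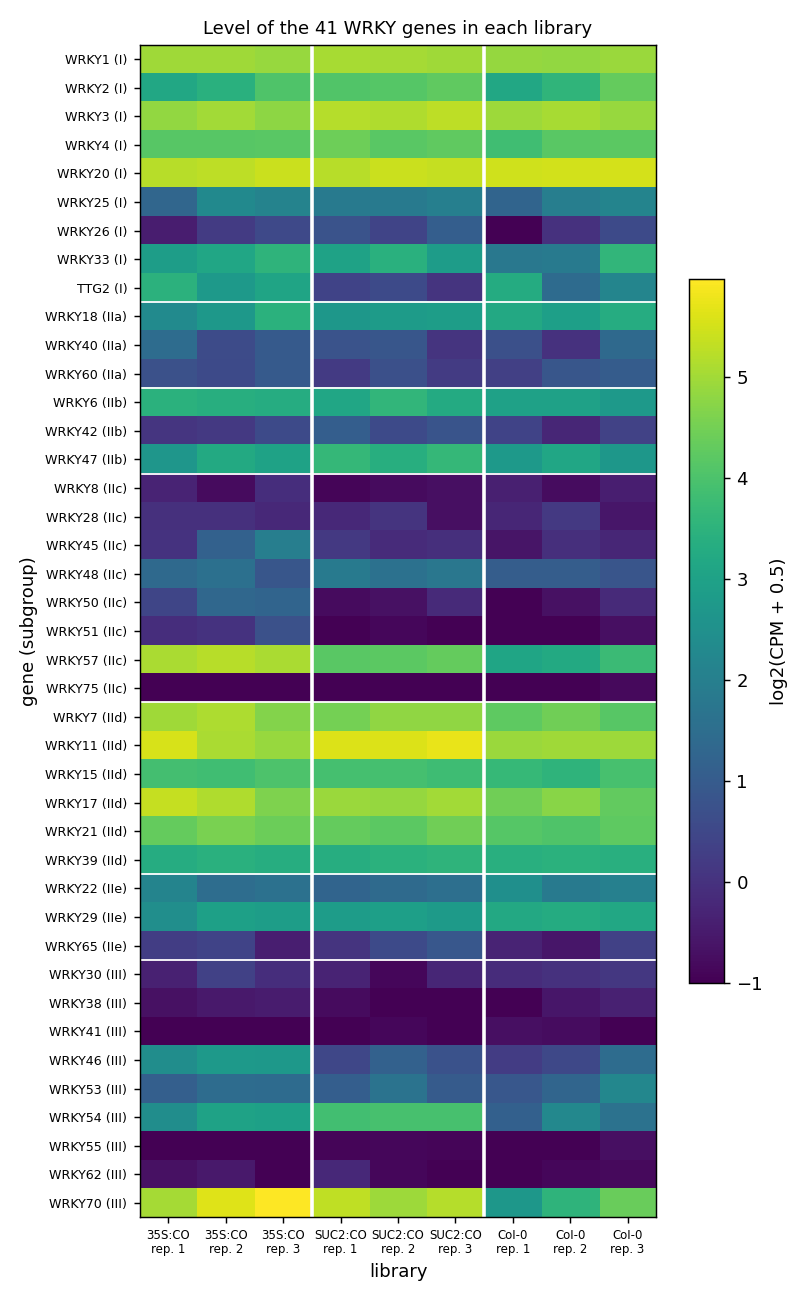
Level of the 41 WRKY genes in the 9 libraries as log2(CPM + 0.5), with genes in rows by group and libraries in columns, white lines parting the genotypes and the subgroups. WRKY70 is brightest in the third 35S:CO library, and 6 rows near the bottom of the scale were not tested.

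The 6 members not tested were near or below the floor. WRKY75 (AT5G13080), reported to promote flowering and phosphate-starvation responses, had 2 counts in 1 Col-0 library and 0 in all libraries of both lines. WRKY8 had 8, 2 and 12 counts in 35S:CO, 1, 2 and 3 counts in SUC2:CO and 7, 2 and 7 counts in Col-0. WRKY38 and WRKY62 are a related pair that restrains defence. WRKY38 had 3, 5 and 6 counts in 35S:CO, 2, 0 and 0 counts in SUC2:CO and 0, 4 and 8 counts in Col-0, so that the 35S:CO libraries lay above SUC2:CO and Col-0 overlapped both. Its ratio of summed counts per total was 6.91 in 35S:CO over SUC2:CO (95% counting interval 1.59 to 62.6) and 0.171 in SUC2:CO over Col-0 (0.0186 to 0.767). WRKY62 had 3, 5 and 0 counts in 35S:CO, 10, 1 and 0 counts in SUC2:CO and 0, 1 and 2 counts in Col-0, and its ratio was 2.7 in 35S:CO (0.647 to 15.8) and 3.76 in SUC2:CO (0.993 to 21) over Col-0. WRKY41 and WRKY55 had at most 3 counts in a library. These intervals cover counting error only, and no test across replicates was made for the 6. Among the 31 other WRKY loci, 11 were tested, and 2 were higher in 35S:CO and 3 in SUC2:CO against Col-0, with 0 between the lines (1 higher and 2 lower in 35S:CO at an unadjusted p under 0.05). WRKY27 and WRKY19 rose in both lines and WRKY52 in SUC2:CO. In the order of the comparisons above, the calls were 18.2%, 27.3% and 0% of the 11 tested. Over all tested genes these shares were 11.8%, 32.3% and 18.8%.

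Genes around the WRKY factors were followed as lists. Of 11 upstream partners, MAP kinase cascade members and VQ-motif proteins, 0 changed in 35S:CO against Col-0 or against SUC2:CO, and only the kinase gene MKK1 rose in SUC2:CO against Col-0 (log2 fold change 0.73, adjusted p = 0.029). At an unadjusted p under 0.05, 0 partners differed for 35S:CO over Col-0, 2 for SUC2:CO over Col-0 and 1 for 35S:CO over SUC2:CO, with median log2 fold changes of 0.20, 0.31 and −0.02. In the same order, 0%, 9.09% and 0% of the partners were called, beside 11.8%, 32.3% and 18.8% of all tested genes. With the replicate block 2 partners rose in SUC2:CO against Col-0 and 0 changed in the other comparisons. Of 16 reported target genes 7 could be tested, and EDS1, PHO1 and ICS1 rose in 35S:CO and EDS1 and PHO1 in SUC2:CO against Col-0. Between the lines, 2 were higher in 35S:CO, ICS1 and the salicylic acid regulator CBP60g. EDS1, the immune signalling hub, had 30.1, 28.8 and 33.1 CPM in 35S:CO, 27.1, 23.9 and 23.7 CPM in SUC2:CO and 12.5, 14.1 and 14.6 CPM in Col-0. Both lines were above Col-0, with log2 fold changes of 1.16 and 0.86 (adjusted p = 6.2e-05 and 0.00051). PHO1 rose in both lines, by 0.83 and 0.80 (adjusted p = 0.03 and 0.017). The 7 tested targets had median log2 fold changes of 0.59 in 35S:CO and −0.07 in SUC2:CO against Col-0. In 35S:CO against Col-0, 6 of the 7 had a positive log2 fold change. ABI5 had −1.01 without passing (adjusted p = 0.19, edgeR's quasi-likelihood test). In the order of the comparisons above, 42.9%, 28.6% and 28.6% of the tested targets were called. Over all tested genes these shares were 11.8%, 32.3% and 18.8%.

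Salicylic acid genes separated the lines. Of 8 tested genes of 9 listed, 4 rose and 0 fell in 35S:CO against Col-0, 0 rose and 1 fell in SUC2:CO against Col-0, and 6 were higher and 0 lower in 35S:CO against SUC2:CO. ICS1, the main enzyme of pathogen-induced salicylic acid synthesis, had 12.9, 12.6 and 15.2 CPM in 35S:CO, 6.62, 5.49 and 7.31 CPM in SUC2:CO and 5.37, 6.98 and 8.07 CPM in Col-0. Only 35S:CO stood apart, by a log2 fold change of 1.00 from Col-0 and 1.07 from SUC2:CO (adjusted p = 0.0042 and 0.0024). PBS3, a conjugating enzyme of the same pathway, had 1.93, 1.80 and 3.87 CPM in 35S:CO, 0.756, 0.848 and 0.766 CPM in SUC2:CO and 0.606, 0.457 and 0.487 CPM in Col-0. The response gene PR2 had 13.7, 18.1 and 27.7 CPM in 35S:CO, 4.50, 9.97 and 5.40 CPM in SUC2:CO and 0.795, 1.45 and 4.49 CPM in Col-0. PBS3 and PR2 rose in 35S:CO against Col-0 by log2 fold changes of 2.28 and 3.12 (adjusted p = 0.0027 and 0.0044). The 4 that rose also included PR5, the gene that fell in SUC2:CO was the transporter EDS5, and SARD1 and NIMIN1 were the tested genes that did not pass between the lines. At an unadjusted p under 0.05, 7 genes were higher and 0 lower in 35S:CO against Col-0, 1 was higher and 2 lower in SUC2:CO against Col-0, and 7 were higher and 0 lower in 35S:CO against SUC2:CO. With the replicate block 5 rose in 35S:CO against Col-0, the added one being the regulator SARD1 (log2 fold change 1.82, adjusted p = 0.027, against 1.72 and 0.064 without the block). In SUC2:CO against Col-0 the block gave 2 higher and 1 lower, and between the lines 6 higher and 0 lower. Over all tested genes the block gave 15.8%, 36% and 22.7% called. The median log2 fold changes of the 8 genes without the block, in the same order of comparisons, were 1.57, 0.03 and 1.29. The genes called without the block were 50%, 12.5% and 75% of the 8, beside 11.8%, 32.3% and 18.8% of all tested genes. NIMIN1 passed the filter on low counts only through its 35S:CO libraries, and so could only be tested because it was high there. It enters these medians and is among the 7 higher against Col-0 at an unadjusted p under 0.05. The response gene PR1 was not tested, with at most 9 counts in a library. WRKY46, like ICS1 and PBS3, thus had a level in 35S:CO above both other genotypes. WRKY50 and WRKY51 also had their highest levels there, but this was the condition for testing them, so they add no separate evidence. WRKY70 and EDS1 were instead above Col-0 in both lines. The lists were chosen with earlier results of these data known, and a link between these genes was not tested.

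Senescence genes and phloem markers were also measured. Of 6 senescence genes, 4 were tested. Against Col-0, 1 was higher in 35S:CO, SAG29, and 2 were higher in SUC2:CO, SAG29 and SAG13, and SAG13 was lower in 35S:CO when the lines were compared. SAG13 had 0, 0.313 and 0 CPM in 35S:CO, 1.55, 2.14 and 2.56 CPM in SUC2:CO and 0.0378, 0.166 and 0.0348 CPM in Col-0. Only the SUC2:CO libraries were clearly above the floor. They alone carried SAG13 past the filter on low counts, so it could only be tested because it was high there. In the order of the comparisons above, the called senescence genes were 25%, 50% and 25% of the 4 tested. Over all tested genes these shares were 11.8%, 32.3% and 18.8%. Among 3 companion-cell markers, the endogenous SUC2 gene fell by 0.49 in 35S:CO and by 0.95 in SUC2:CO on the log2 scale (adjusted p = 0.046 and 0.00099), and the proton pump gene AHA3 rose by 0.56 and 0.66 (adjusted p = 0.029 and 0.0063). The transcription factor gene APL had a mean of 26.5 CPM in 35S:CO and of 29.2 in SUC2:CO, beside 27.9 for Col-0, and did not pass (log2 fold change −0.07 in 35S:CO and 0.07 in SUC2:CO, adjusted p = 0.71 and 0.65). The 3 markers thus did not move together, and the part of phloem content in the WRKY values was not tested.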

How the data were processed

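RNA from 9 seedling samples, 3 of each of 3 genotypes, was isolated (RNeasy Plant Mini Kit) and turned into strand-specific libraries, per the labels' protocols. The authors deposited raw counts per gene, unnormalized whole numbers. Per the submitters' processing notes, FastQC, STAR, featureCounts, limma and the TAIR10 build were used. Their versions and the strand setting of the counting are not given in the sources used here. Names, transcript lengths and promoters came from RefSeq's TAIR10.1 annotation, which matched 32548 of the 32833 loci. No member that changed overlaps another annotated locus.

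Counts were tested as deposited with edgeR 4.0.16 (R 4.3.3). filterByExpr kept 19149 genes, libraries were scaled by TMM, and all 9 samples entered 1 quasi-likelihood model of genotype. Tests were two-sided, with Benjamini-Hochberg adjustment across the tested genes of a comparison and a threshold of 0.05 on the adjusted p. SEs were derived from the F statistics. CPM uses the TMM-scaled totals. Totals ran from 25563118 to 26636174 counts. No libraries were identical, and no sample was left out. The fit was tested on simulated counts. Alternatives were other filters and scalings, DESeq2 1.42.0, limma-voom (limma 3.58.1), stricter thresholds, the replicate number as a block, fits restricted to the genotypes under comparison, and each sample left out.

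The replicate numbers were taken to pair 35S:CO and Col-0 libraries because every same-number correlation of deviations from the genotype means was over 0.1 (lowest 0.248). This pairing comes from the data, since the labels do not state one. The members and lists were chosen with earlier results of these data known. Members named with all values had to pass in at least 1 comparison with no overlap between libraries. Up to 4 genes of a list were named per comparison, among those past the threshold with an absolute log2 fold change of at least 1. The smaller changes of EDS1, PHO1, MKK1, SUC2 and AHA3 were added after they were seen. So were the values of ABI5, CAF1a, SAG13, PR1, the WRKY loci outside the 41, leaf-hair genes and unchanged members.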

Additional observations from a re-analysis of the deposited data

Results flagged for a closer look

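The change against Col-0 differed between 35S:CO and SUC2:CO for 8 WRKY genes, tested directly as the difference of the log2 fold changes with edgeR's quasi-likelihood test. The change in 35S:CO minus that in SUC2:CO was 3.41 for TTG2, 2.16 for WRKY46, 3.00 for WRKY50 and 0.90 for WRKY57. For WRKY51 it was 5.32, a fitted value that depends on the prior count because SUC2:CO held 1 count in all. It was −1.15 for WRKY54, −0.59 for WRKY47 and −0.34 for WRKY3. The adjusted p ran from 0.0015 for TTG2 to 0.044 for WRKY47. Since both changes are taken against the same Col-0 libraries, each of these values is also the comparison of the lines given above. TTG2, WRKY46, WRKY51 and WRKY57 passed it without any 1 library, and WRKY3, WRKY47, WRKY50 and WRKY54 did not. WRKY50 and WRKY51 could only be tested because their 35S:CO libraries were high, so their passing adds no separate evidence.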

How the results depend on the processing

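The number of WRKY genes changed was 8 for 35S:CO over Col-0, 10 for SUC2:CO over Col-0 and 8 for 35S:CO over SUC2:CO. At an adjusted p under 0.01 it was 3, 4 and 4, and with an absolute log2 fold change of at least 1 it was 7, 3 and 5. Leaving out 1 library at a time gave 5 to 8, 5 to 11 and 4 to 9. The lowest counts came without 35S:CO replicate 2 or Col-0 replicate 1 (5), without SUC2:CO replicate 3 (5) and without SUC2:CO replicate 2 (4). Between the lines it was also 5 without 35S:CO replicate 3, SUC2:CO replicate 1 or SUC2:CO replicate 3. A fit of only the compared genotypes gave 5 in 35S:CO against Col-0. The cause was not tested. Other filters, scalings and tools stayed within 1.5 times of the first counts. Between the lines, 5 were higher and 3 lower, but 5 and 1 with library totals and 6 and 1 with no filter on low counts.

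With a block for replicate number, the counts were 10, 10 and 10. Over all tested genes this block gave 15.8%, 36% and 22.7% called, against 11.8%, 32.3% and 18.8% without it. When only the compared genotypes were fitted as well, the counts of WRKY genes were 11, 9 and 7. This second fit also added TTG2 in 35S:CO (adjusted p = 0.034) and lost WRKY6 and WRKY22 in SUC2:CO (0.059 and 0.051) and WRKY3 and WRKY47 between the lines (0.071 and 0.054). Between the lines the block gave 5 higher and 5 lower, adding WRKY2 and WRKY11 (0.028 and 0.046). In the comparisons that involve SUC2:CO the samples share only a number: same-number correlations averaged 0.0363 and −0.0369, and not every sample correlated best with its own number. Over 1878 values of single genes under alternatives, 0 called values changed sign, 64 were no longer past the threshold and 37 newly passed.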
